A study of Mus musculus with 9 samples.

Results

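Type I interferon-stimulated genes were examined in blood monocytes from wild type, Ccl2-/- and Ccr2-/- mice. The genes were taken from a list of 36 symbols, chosen by name while earlier results of these data were known. Of these, 33 were measured on the array among 19938 genes in all. Each measured gene was read from 1 transcript cluster, the array's unit of probes spread along a gene. Isg15 and Oas1g were read only by clusters shared with another gene, and no cluster was listed for Ifi44, so these 3 genes have no value of their own. The mice were tumor-free and 14 to 18 weeks old. Wild type mice were Balb/cJ, and mice with a targeted deletion of Ccl2 or of Ccr2 were kept on the same Balb/c background. There were 3 Affymetrix Mouse Gene 1.0 ST arrays per genotype, and each array held RNA from pooled blood of 5 mice, so that every p-value below measures the spread between pools and not between mice. Magnetic beads removed T cells (CD4 and CD8), B cells (B220), neutrophils (Ly-6G), eosinophils (CCR3) and cells with MHC class II, and the rest was selected for CD11b. Monocytes were defined as lacking NK1.1 and CD11c, found on natural killer (NK) and dendritic cells, but antibodies to these are not among those listed for the depletion. Both deletions were present in every cell of the mouse, and fewer cells of a type and less RNA per cell cannot be told apart in bulk RNA.

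Type I interferons, the interferon alpha and beta proteins, bind the receptor made of IFNAR1 and IFNAR2. The kinases JAK1 and TYK2 then phosphorylate STAT2, which joins IRF9 at a short DNA element, the interferon-stimulated response element, in front of antiviral genes. Low constant interferon signalling keeps these genes active in blood monocytes without infection, and monocytes raise them strongly when interferon arrives. CCL2 is a chemokine that draws monocytes out of the bone marrow, CCR2 is its receptor, and the comparison of the knockouts asks whether losing the ligand or the receptor leaves circulating monocytes in the same state.

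The response element is shown here because STAT2 and IRF9 meet at it in front of antiviral genes. Promoter windows from RefSeq (GRCm38.p6, from 250 bases before to 50 bases after a gene's start) were at hand for 26 of the 36 genes. The reference is that of the C57BL/6 strain, while the mice studied were Balb/c. The core of the element was searched for on both strands as the unit GAAA, any 2 bases and GAAA again, which reads as TTTC, 2 bases and TTTC on the other strand. Matches may overlap one another, and a gene was counted once. It was found in 12 of the 26 genes (46.2%), against 1079 of all 27025 genes with a window (3.99%). Stretches of 40 bases around 7 matches that lie before the start of their genes are printed along the strand of the gene, 5′ to 3′, with the match in capitals.
Ifit3, chr19:34583358-34583397, plus strand, match ending 147 bases before the start: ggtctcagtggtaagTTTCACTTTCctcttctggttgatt
Ifit3, chr19:34583392-34583431, plus strand, match ending 113 bases before the start: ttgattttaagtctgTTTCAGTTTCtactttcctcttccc
Ifit1, chr19:34640770-34640809, plus strand, match ending 95 bases before the start: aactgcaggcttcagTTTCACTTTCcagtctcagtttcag
Ifit1, chr19:34640789-34640828, plus strand, match ending 76 bases before the start: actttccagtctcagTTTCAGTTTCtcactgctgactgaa
Oas3, chr5:120777710-120777749, minus strand, match ending 66 bases before the start: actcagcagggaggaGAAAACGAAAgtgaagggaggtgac
Rsad2, chr12:26456548-26456587, minus strand, match ending 111 bases before the start: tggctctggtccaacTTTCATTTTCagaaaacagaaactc
Ddx60, chr8:61928019-61928058, plus strand, match ending 44 bases before the start: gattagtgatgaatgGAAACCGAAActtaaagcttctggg
Ifit1 and Ifit3 share the same 2 cores in the same order, TTTCACTTTC and then TTTCAGTTTC. A match describes the letters in the window and does not show that a factor binds there.

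The deposited values are linear intensities with a median of 324.1 to 430.8 per array. Ccr2 itself read 0.0797-fold of its wild type level in the Ccr2-/- arrays (adjusted p = 4.33e-06 with limma), as the label says. The Ccl2 probes checked nothing, since no source used here gives their place relative to the deleted part of the gene, and they read 0.47 higher on the log2 scale in Ccl2-/- monocytes (adjusted p = 0.326). All levels below are log2 intensities of single arrays in the order of the replicate numbers, a fold is 2 to the power of the difference between the means of 3 arrays, and a gene was called at a limma adjusted p under 0.05 over all genes. Levels of different genes are read by different probes and are not compared.

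Interferon-stimulated genes were broadly lower in Ccr2-/- than in wild type monocytes. Of the 33 genes, 26 were called lower and 0 higher in Ccr2-/- monocytes, against 8.38% of all genes called lower and 4.91% called higher. The median change over the 33 genes was -0.83 on the log2 scale, or 0.563-fold, beside 0.01 over all genes. The 26 called genes stood at 0.32-fold to 0.841-fold of wild type, and 15 of them were at or below a log2 change of -1. The mean over the 33 genes was 10.89, 11.04 and 11.09 on the wild type arrays, 10.70, 10.74 and 11.04 on the Ccl2-/- arrays and 10.27, 10.23 and 10.14 on the Ccr2-/- arrays. All Ccr2-/- arrays lay below all others in this mean, Ccl2-/- replicate 3 lay among the wild type arrays, and Ccl2-/- replicates 1 and 2 lay below them. The mean was below wild type for 30 of the 33 genes, against 47.7% of all genes. For 29 genes all Ccr2-/- arrays lay below all wild type arrays, which held for 18.1% of all genes, and for 1 gene they lay above, which held for 15.7%. Under the size limits of the study's methods, a ratio over 1.2 and a difference over 100 between group means, 26 genes were lower, against 9.21% of all genes.

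**Figure D1:**
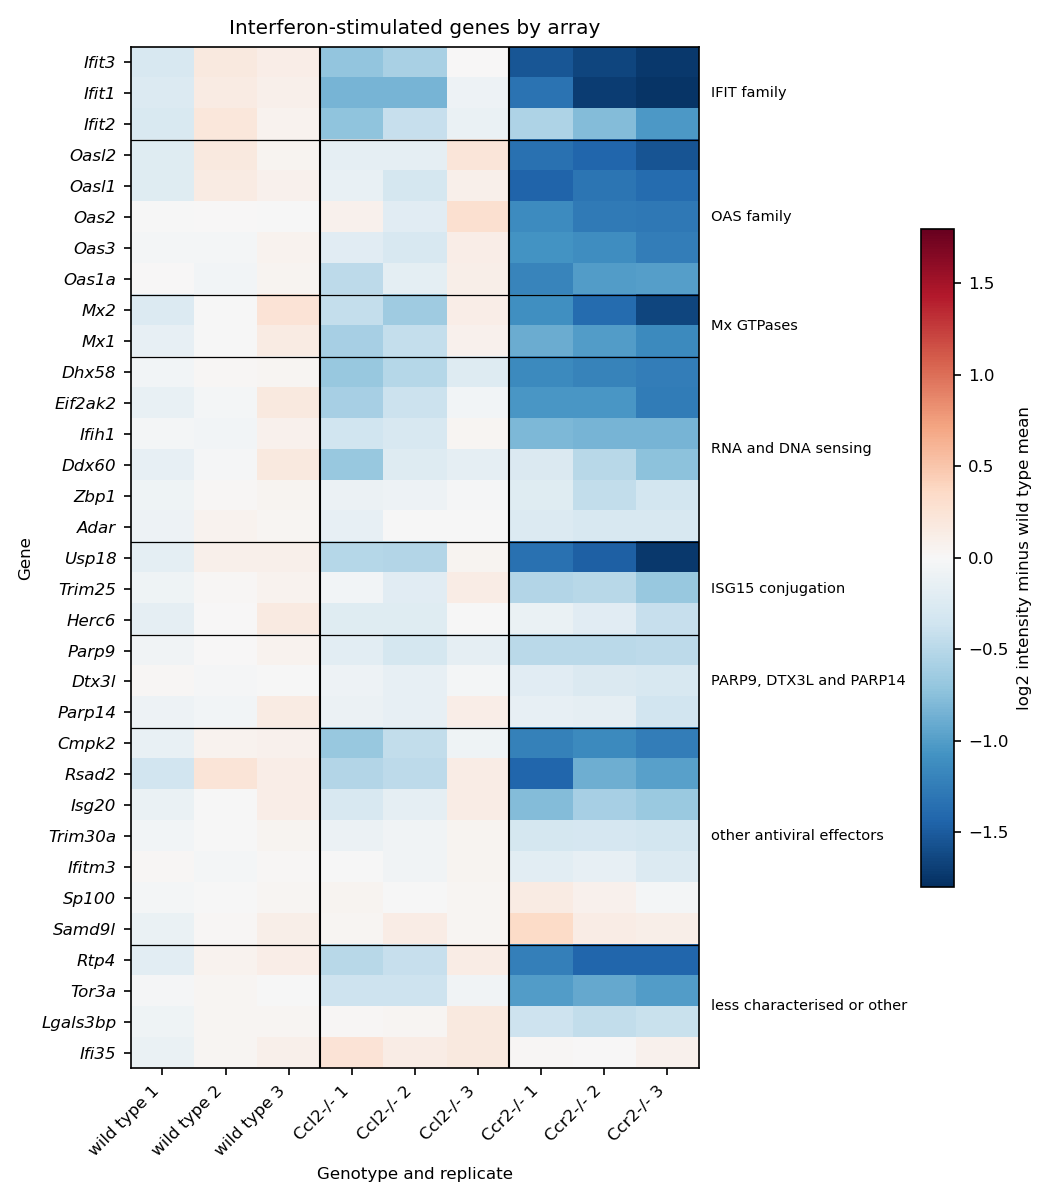
Each cell is the log2 intensity of 1 of the 33 genes (rows, grouped by role) on 1 array (columns) minus the wild type mean of that gene, with blue below and red above that mean. The columns of the 3 Ccr2-/- arrays are blue for most genes, Ccl2-/- replicate 3 is paler than Ccl2-/- replicates 1 and 2, and Sp100, Samd9l and Ifi35 show no blue in Ccr2-/- replicate 1. Under centring of each array on the monocyte marker list, chosen after seeing the data, 10 of the 30 genes with a lower mean turn to higher means in Ccr2-/- monocytes (Zbp1, Parp9, Dtx3l, Trim30a, Adar, Lgals3bp, Ifitm3, Herc6, Parp14 and Ddx60).

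The IFIT family fell in Ccr2-/- monocytes with all 3 measured members. IFIT proteins bind foreign RNA and block its translation. Ifit3 read 10.53, 10.99 and 10.94 on the wild type arrays, 10.11, 10.24 and 10.82 on the Ccl2-/- arrays and 9.28, 9.17 and 9.08 on the Ccr2-/- arrays. It was at 0.320-fold of wild type (log2 change -1.64, SE 0.19, limma adjusted p = 0.00112), the largest fall among the 33 genes, and the highest Ccr2-/- array lay far below the lowest array of the other genotypes. Ifit1 read 9.67, 10.05 and 9.998 in wild type, 9.07, 9.07 and 9.82 in Ccl2-/- and 8.57, 8.19 and 8.14 in Ccr2-/- monocytes. The 3 Ccr2-/- arrays were again the lowest, Ccl2-/- replicate 3 lay between wild type replicates 1 and 3, and Ifit1 was at 0.329-fold of wild type (log2 change -1.60, SE 0.22, limma adjusted p = 0.00197). Ifit2 read 9.51, 9.99 and 9.84 on the wild type arrays, 9.05, 9.36 and 9.66 on the Ccl2-/- arrays and 9.22, 8.99 and 8.75 on the Ccr2-/- arrays, with Ccr2-/- replicate 1 above Ccl2-/- replicate 1. Its level in Ccr2-/- monocytes was 0.578-fold of wild type (log2 change -0.79, SE 0.19, limma adjusted p = 0.0266). That call was lost without wild type replicate 2, wild type replicate 3, Ccr2-/- replicate 2 or Ccr2-/- replicate 3, where the adjusted p was 0.0863 to 0.102. Ifit2 and Ifit3 are neighbours in the genome, and 3 protein-coding genes stand between Ifit3 and Ifit1.

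All 5 measured genes of the OAS family fell in Ccr2-/- monocytes. Oas1a, Oas2 and Oas3 make oligoadenylates that switch on the RNA-cutting enzyme RNase L, and the OAS-like proteins Oasl1 and Oasl2 carry domains resembling ubiquitin. Oasl2 read 11.43, 11.82 and 11.69 on the wild type arrays, 11.48, 11.49 and 11.86 on the Ccl2-/- arrays and 10.31, 10.23 and 10.09 on the Ccr2-/- arrays. The Ccl2-/- arrays were spread across the wild type levels while the Ccr2-/- arrays were lower by a wide margin, at 0.368-fold of wild type (log2 change -1.44, SE 0.14, limma adjusted p = 0.000653). Oasl1, known to hold back translation of IRF7, read 10.62, 10.98 and 10.91 in wild type, 10.71, 10.52 and 10.93 in Ccl2-/- and 9.40, 9.52 and 9.45 in Ccr2-/- monocytes. The groups fell in the same way, and Oasl1 was at 0.383-fold of wild type (log2 change -1.38, SE 0.13, limma adjusted p = 0.000625). Oas2 read 11.09, 11.11 and 11.09 on the wild type arrays, 11.17, 10.90 and 11.39 on the Ccl2-/- arrays and 9.97, 9.83 and 9.82 on the Ccr2-/- arrays. The wild type arrays were nearly equal for this gene, and its Ccr2-/- level was 0.428-fold of wild type (log2 change -1.23, SE 0.12, limma adjusted p = 0.000653). Oas3, which makes long oligoadenylates, read 10.51, 10.51 and 10.60 in wild type, 10.34, 10.25 and 10.66 in Ccl2-/- and 9.47, 9.41 and 9.29 in Ccr2-/- monocytes and was at 0.451-fold of wild type (log2 change -1.15, SE 0.11, limma adjusted p = 0.000653). Oas1a read 10.13, 10.07 and 10.17 on the wild type arrays, 9.66, 9.95 and 10.23 on the Ccl2-/- arrays and 8.94, 9.11 and 9.14 on the Ccr2-/- arrays and was at 0.479-fold of wild type (log2 change -1.06, SE 0.13, limma adjusted p = 0.00139). Here Ccl2-/- replicates 1 and 2 lay below all wild type arrays and Ccl2-/- replicate 3 above them. Oas1a has a near-identical neighbour, Oas1g, and probes of the cluster named for Oas1a alone may still read both.

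Both Mx genes, which code for dynamin-like GTPases that trap viral nucleocapsids, fell in Ccr2-/- monocytes. Many inbred mouse strains carry a defective Mx1 gene, and the array reads RNA only. Mx2 read 8.87, 9.10 and 9.35 in wild type, 8.68, 8.46 and 9.22 in Ccl2-/- and 8.003, 7.72 and 7.46 in Ccr2-/- monocytes. Its wild type and Ccr2-/- arrays spread widely without overlapping, and Mx2 was at 0.384-fold of wild type (log2 change -1.38, SE 0.22, limma adjusted p = 0.00400). Mx1 read 10.18, 10.32 and 10.48 on the wild type arrays, 9.73, 9.90 and 10.40 on the Ccl2-/- arrays and 9.44, 9.32 and 9.18 on the Ccr2-/- arrays. Ccl2-/- replicates 1 and 2 were below every wild type array, Ccl2-/- replicate 3 was within them, and Mx1 was at 0.495-fold of wild type (log2 change -1.01, SE 0.17, limma adjusted p = 0.00471) in Ccr2-/- monocytes.

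Of the 6 sensors and handlers of foreign RNA and DNA, 5 were called lower in Ccr2-/- monocytes, and all 6 had lower means. Dhx58, also called LGP2, and Ifih1, also called MDA5, are helicases that detect double-stranded RNA. Dhx58 read 10.83, 10.89 and 10.91 on the wild type arrays, 10.19, 10.37 and 10.64 on the Ccl2-/- arrays and 9.73, 9.67 and 9.64 on the Ccr2-/- arrays. Its 3 genotypes did not overlap, with Ccl2-/- monocytes in the middle, and at 0.436-fold of wild type (log2 change -1.20, SE 0.11, limma adjusted p = 0.000579) it had the smallest adjusted p of the 33 genes. Ifih1 read 11.10, 11.09 and 11.20 in wild type, 10.77, 10.84 and 11.16 in Ccl2-/- and 10.32, 10.29 and 10.29 in Ccr2-/- monocytes and was at 0.563-fold of wild type (log2 change -0.83, SE 0.10, limma adjusted p = 0.00125). The 3 Ccr2-/- arrays were nearly equal for Ifih1. Eif2ak2, the kinase PKR that stops translation when double-stranded RNA is present, read 10.11, 10.21 and 10.42 on the wild type arrays, 9.66, 9.86 and 10.19 on the Ccl2-/- arrays and 9.20, 9.20 and 8.98 on the Ccr2-/- arrays and was at 0.460-fold of wild type (log2 change -1.12, SE 0.15, limma adjusted p = 0.00155). Zbp1, a sensor of left-handed nucleic acid that can start necroptosis, read 11.19, 11.29 and 11.32 in wild type, 11.16, 11.17 and 11.25 in Ccl2-/- and 11.05, 10.83 and 10.94 in Ccr2-/- monocytes. It was called lower at 0.798-fold of wild type (log2 change -0.33, SE 0.08, limma adjusted p = 0.0248), with a positive change of 0.19 under centring on the monocyte marker list, and the call was lost without wild type replicates 2 or 3 or Ccr2-/- replicates 2 or 3 (adjusted p 0.0677 to 0.105). Adar, which edits adenosine in double-stranded RNA and so keeps host RNA from being sensed, read 10.81, 10.97 and 10.94 on the wild type arrays, 10.75, 10.90 and 10.90 on the Ccl2-/- arrays and 10.65, 10.61 and 10.62 on the Ccr2-/- arrays. It was called lower at 0.826-fold of wild type (log2 change -0.28, SE 0.07, limma adjusted p = 0.0391), with a positive change of 0.24 under that centring, and the call was lost without any 1 of wild type replicates 2 and 3, Ccl2-/- replicate 2 and the 3 Ccr2-/- arrays (adjusted p 0.063 to 0.148). Ddx60, a helicase linked to RNA sensing, read 8.74, 8.87 and 9.07 in wild type, 8.21, 8.66 and 8.73 in Ccl2-/- and 8.64, 8.40 and 8.15 in Ccr2-/- monocytes. All Ccr2-/- arrays lay below the wild type arrays, but Ddx60 at 0.708-fold (limma adjusted p = 0.104) did not pass the test (95% interval of the log2 change -0.89 to -0.11). Without Ccl2-/- replicate 1 it passed (adjusted p = 0.0298).

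Of 3 measured genes for enzymes that attach or remove the ubiquitin-like protein ISG15, 2 were called lower in Ccr2-/- monocytes. All 3 had lower means. Usp18 removes ISG15 and also shuts down signalling at the interferon receptor. It read 11.06, 11.32 and 11.32 on the wild type arrays, 10.72, 10.71 and 11.29 on the Ccl2-/- arrays and 9.89, 9.77 and 9.49 on the Ccr2-/- arrays. Ccl2-/- replicates 1 and 2 were below wild type, the Ccr2-/- arrays were lower still, and Usp18 was at 0.349-fold of wild type (log2 change -1.52, SE 0.17, limma adjusted p = 0.00103). Trim25, a ubiquitin and ISG15 ligase that activates the RNA sensor RIG-I, read 11.05, 11.15 and 11.20 in wild type, 11.09, 10.92 and 11.26 in Ccl2-/- and 10.60, 10.63 and 10.45 in Ccr2-/- monocytes and was at 0.672-fold of wild type (log2 change -0.57, SE 0.10, limma adjusted p = 0.00604). Herc6, the main ISG15 ligase of mouse cells, read 10.29, 10.46 and 10.61 on the wild type arrays, 10.24, 10.24 and 10.44 on the Ccl2-/- arrays and 10.33, 10.24 and 10.04 on the Ccr2-/- arrays. Its genotypes overlapped, and it did not pass the test at 0.841-fold (limma adjusted p = 0.236).

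Parp9 and Dtx3l form a complex of a macrodomain protein and a ubiquitin ligase, and with Parp14, an ADP-ribosyl transferase, they lie side by side in the genome. Parp9 read 10.97, 11.04 and 11.09 in wild type, 10.85, 10.72 and 10.88 in Ccl2-/- and 10.55, 10.54 and 10.57 in Ccr2-/- monocytes. It was called lower at 0.717-fold of wild type (log2 change -0.48, SE 0.07, limma adjusted p = 0.00223), with a change of 0.03 under centring on the monocyte marker list. Dtx3l read 11.96, 11.92 and 11.94 on the wild type arrays, 11.84, 11.79 and 11.90 on the Ccl2-/- arrays and 11.74, 11.68 and 11.65 on the Ccr2-/- arrays. It was called lower at 0.841-fold of wild type (log2 change -0.25, SE 0.06, limma adjusted p = 0.0288), and the call was lost without any 1 of the wild type or Ccr2-/- arrays (adjusted p 0.0565 to 0.108). Under centring on the monocyte marker list, which called 15162 of all 19938 genes higher, it had a called rise of 0.26 (limma adjusted p = 0.0396). Parp14 read 11.38, 11.42 and 11.61 in wild type, 11.36, 11.32 and 11.59 in Ccl2-/- and 11.33, 11.31 and 11.12 in Ccr2-/- monocytes, with all Ccr2-/- arrays just below the wild type arrays. At 0.861-fold (limma adjusted p = 0.262) it did not pass the test.

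Of 7 further antiviral effectors, 4 were called lower in Ccr2-/- monocytes. Cmpk2, a mitochondrial nucleotide kinase, and Rsad2, the radical SAM enzyme viperin, are next to each other in the genome. Cmpk2 read 11.01, 11.21 and 11.23 on the wild type arrays, 10.47, 10.71 and 11.07 on the Ccl2-/- arrays and 9.94, 10.01 and 9.91 on the Ccr2-/- arrays and was at 0.436-fold of wild type (log2 change -1.20, SE 0.14, limma adjusted p = 0.00113). Rsad2 read 9.81, 10.39 and 10.27 in wild type, 9.64, 9.68 and 10.28 in Ccl2-/- and 8.73, 9.28 and 9.18 in Ccr2-/- monocytes. The lowest Ccr2-/- array for Rsad2 was replicate 1, while for Cmpk2 it was replicate 3. Rsad2 was at 0.468-fold of wild type (log2 change -1.096, SE 0.23, limma adjusted p = 0.0137), and this call was lost without wild type replicate 2, wild type replicate 3 or Ccr2-/- replicate 1 (adjusted p 0.0544 to 0.0584). Isg20, an RNA exonuclease, read 10.83, 10.95 and 11.07 on the wild type arrays, 10.66, 10.78 and 11.09 on the Ccl2-/- arrays and 10.17, 10.35 and 10.28 on the Ccr2-/- arrays and was at 0.623-fold of wild type (log2 change -0.68, SE 0.12, limma adjusted p = 0.00604). Trim30a, a TRIM protein that dampens NF-κB signalling, read 12.66, 12.70 and 12.76 in wild type, 12.61, 12.64 and 12.76 in Ccl2-/- and 12.39, 12.40 and 12.38 in Ccr2-/- monocytes. It was called lower at 0.802-fold of wild type (log2 change -0.32, SE 0.07, limma adjusted p = 0.0132), with a positive change of 0.19 under centring on the monocyte marker list, and the call was lost without wild type replicate 3 or Ccr2-/- replicates 1 or 2 (adjusted p 0.0519 to 0.0592). Trim30a has close relatives in the genome, so its reading may not be its own alone. Ifitm3, a membrane protein that blocks virus entry, read 13.67, 13.62 and 13.66 on the wild type arrays, 13.64, 13.58 and 13.71 on the Ccl2-/- arrays and 13.46, 13.51 and 13.41 on the Ccr2-/- arrays. The Ccr2-/- arrays were below all others by a small margin, and Ifitm3 missed the threshold at 0.875-fold (limma adjusted p = 0.0900). Under the same centring, which called 15162 of all 19938 genes higher, it had a called rise of 0.32 (limma adjusted p = 0.018).

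Sp100 and Samd9l had means slightly above wild type in Ccr2-/- monocytes and did not pass the test. Under centring on the monocyte marker list both were called higher, by 0.58 (limma adjusted p = 0.00358) and 0.71 (0.00325) on the log2 scale. That centring called 15162 of all 19938 genes higher. Sp100, a component of nuclear bodies that silence viral DNA, read 12.80, 12.82 and 12.87 in wild type, 12.88, 12.82 and 12.87 in Ccl2-/- and 12.98, 12.91 and 12.79 in Ccr2-/- monocytes, and its genotypes overlapped. The difference was 1.05-fold (limma adjusted p = 0.730), with a 95% interval of the log2 change of -0.09 to 0.22. Samd9l, a restriction factor for poxviruses, read 11.65, 11.80 and 11.88 on the wild type arrays, 11.82, 11.92 and 11.82 on the Ccl2-/- arrays and 12.12, 11.91 and 11.89 on the Ccr2-/- arrays. All Ccr2-/- arrays lay above the wild type arrays by a narrow margin, and Samd9l at 1.15-fold (limma adjusted p = 0.242) did not pass the test (95% interval -0.01 to 0.40).

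Of 4 remaining genes with other or less studied roles, 3 were called lower in Ccr2-/- monocytes. Rtp4, a chaperone of membrane receptors, read 10.68, 10.93 and 10.98 on the wild type arrays, 10.37, 10.45 and 10.995 on the Ccl2-/- arrays and 9.62, 9.44 and 9.43 on the Ccr2-/- arrays and was at 0.389-fold of wild type (log2 change -1.36, SE 0.17, limma adjusted p = 0.00123). Tor3a, a torsin ATPase of the endoplasmic reticulum, read 11.25, 11.30 and 11.27 in wild type, 10.90, 10.90 and 11.20 in Ccl2-/- and 10.27, 10.35 and 10.27 in Ccr2-/- monocytes and was at 0.509-fold of wild type (log2 change -0.98, SE 0.09, limma adjusted p = 0.000653). Lgals3bp, a secreted glycoprotein that binds galectins, read 12.24, 12.36 and 12.36 on the wild type arrays, 12.35, 12.36 and 12.50 on the Ccl2-/- arrays and 11.95, 11.88 and 11.92 on the Ccr2-/- arrays. It was called lower at 0.756-fold of wild type (log2 change -0.40, SE 0.07, limma adjusted p = 0.00584), with a positive change of 0.11 under centring on the monocyte marker list. Ifi35, a cytoplasmic protein that can also act as a danger signal outside the cell, read 10.62, 10.77 and 10.83 in wild type, 10.98, 10.87 and 10.92 in Ccl2-/- and 10.76, 10.75 and 10.82 in Ccr2-/- monocytes. It stood at 1.02-fold (limma adjusted p = 0.903), with the groups overlapping and a 95% interval of the log2 change of -0.13 to 0.20. Under centring on the monocyte marker list, which called 15162 of all 19938 genes higher, Ifi35 was called higher by 0.55 on the log2 scale (limma adjusted p = 0.00358).

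The 7 genes that were not called in Ccr2-/- monocytes, Ddx60, Herc6, Parp14, Ifitm3, Ifi35, Sp100 and Samd9l, ranged from 0.708-fold to 1.15-fold of wild type, with adjusted p of 0.09 to 0.903. Their 95% intervals reached from -0.89 to 0.40 on the log2 scale, so falls as large as those of several called genes lie inside some of them. Of the 26 calls, 16 held under all 18 alternatives of processing and array choice. Centring each array on its median ended the calls of Ifit2, Zbp1, Dtx3l, Trim30a, Adar and Lgals3bp, quantile normalization those of Ifit2, Dtx3l and Adar, and centring on the monocyte marker list also those of Isg20, Trim25 and Parp9. When any 1 array was left out, 20 to 27 genes were called lower, against 5.57% to 10.4% of all genes. The largest loss, to 20 (6.03% of all genes), came without wild type replicate 3.

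**Figure D2:**
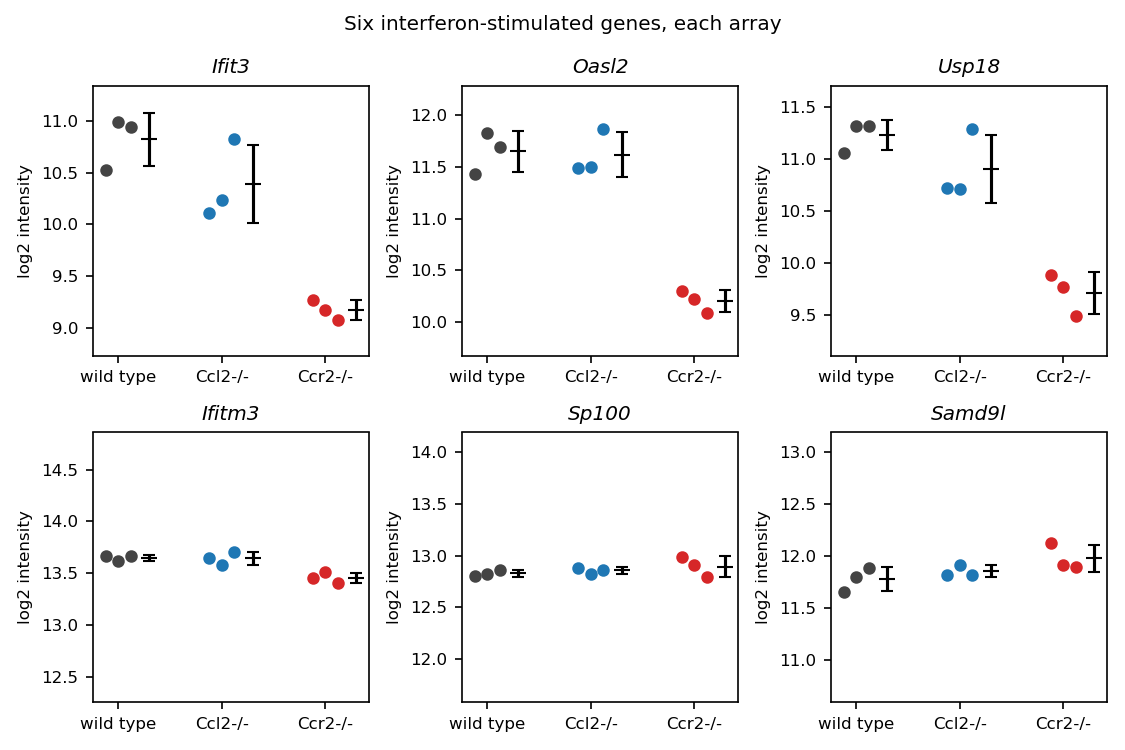
Each panel shows log2 intensity of a gene on the 9 arrays by genotype, with a horizontal tick and bar for the mean and SD of 3 arrays. Ifit3, Oasl2 and Usp18 show Ccr2-/- arrays below all others and Ccl2-/- replicate 3 within the wild type range or above it. Ifitm3, Sp100 and Samd9l, drawn over the same span of log2 units, show differences of at most 0.20 between the means of Ccr2-/- and wild type monocytes.

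The knockouts were then compared with each other directly. Relative to Ccl2-/- monocytes, 18 of 33 genes were called lower and 0 higher in Ccr2-/- monocytes, against 2.87% and 0.732% of all genes. The mean was lower for 31 of the 33 genes, against 67.5% of all genes, and the size limits held for 22, against 9.16%. The median difference was -0.62 on the log2 scale over the 33 genes and -0.08 over all genes. All 18 were also among the 26 called lower against wild type, a comparison that uses the same Ccr2-/- arrays. The OAS family was called in full. Oasl2 was at 0.378-fold (limma adjusted p = 0.00528), Oas2 at 0.411-fold (0.00482), Oasl1 at 0.416-fold (0.00598), Oas3 at 0.492-fold (0.00808) and Oas1a at 0.542-fold (0.0174) of the Ccl2-/- level. For these genes the lowest Ccl2-/- array was well above the highest Ccr2-/- array. In the IFIT family, Ifit3 was at 0.431-fold (limma adjusted p = 0.02004) and Ifit1 at 0.494-fold (0.0451), and Ifit2 did not pass at 0.774-fold (0.343). Usp18 stood at 0.438-fold (limma adjusted p = 0.0159), Rtp4 at 0.465-fold (0.0171), Mx2 at 0.480-fold (0.0405) and Cmpk2 at 0.576-fold (0.0257). Of the remaining calls, Eif2ak2 stood at 0.585-fold (0.0298), Dhx58 at 0.608-fold (0.0168), Tor3a at 0.614-fold (0.0141) and Ifih1 at 0.649-fold (0.0210). Isg20 (0.671-fold (0.0399)), Trim25 (0.691-fold (0.0293)) and Lgals3bp (0.715-fold (0.0159)) completed the 18. The 8 genes called against wild type only were Ifit2, Mx1, Rsad2, Parp9, Dtx3l, Zbp1, Trim30a and Adar, and the arrays of the knockouts did not overlap for 27 of the 33 genes, against 16% of all genes with Ccr2-/- below Ccl2-/-.

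The direct comparison rested on its settings more than the comparison with wild type did. Of the 18 calls, the call of Oasl2 alone held under all 18 alternatives. The share of all genes called lower also moved with the settings, from 2.87% with all arrays. Without Ccr2-/- replicate 1, 2 or 3 the count was 3, 3 and 8, against 0.1%, 0.1% and 1.22% of all genes. Leaving out a wild type array gave 13, 12 and 12 (1.4%, 1.24% and 1.3%), and leaving out a Ccl2-/- array gave 20, 14 and 13 (4.14%, 1.34% and 0.652%). A fit of the 6 arrays compared left 2 genes, Oasl2 and Oasl1 (0.0702% of all genes), and centring each array on its median left 5 (0.371%).

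In Ccl2-/- monocytes no interferon-stimulated gene passed the test against wild type. The limma count was 0 of 33 lower and 0 higher, against 0.0853% and 0.0752% of all genes (0.16% in either direction), and at an unadjusted p under 0.05 it was 6 lower and 1 higher, against 6.32% and 6.78% of all genes. Means were below wild type for 28 of the 33 genes, while 31.3% of all genes had a lower mean, and 12 were lower by the size limits, against 3.76% of all genes. The median change was -0.15 on the log2 scale, or 0.903-fold, beside 0.08 over all genes, and centring each array on its median moved these to -0.26 and -0.03. With that centring 32 means were below wild type, and with centring on the monocyte marker list 19. Single genes ranged from 0.666-fold to 1.13-fold with adjusted p of 0.113 to 0.962, and their 95% intervals reached from -1.09 to 0.35, so changes of a size seen in Ccr2-/- monocytes are not excluded for some of them by these arrays. The lowest means relative to wild type were those of 4 genes. Ifit1 had a log2 change of -0.59 (SE 0.22), Dhx58 of -0.48 (SE 0.11), Ifit3 of -0.43 (SE 0.19) and Ifit2 of -0.42 (SE 0.19). The OAS genes lay between -0.18 and 0.06. Dhx58, Ddx60, Tor3a, Parp9 and Dtx3l had all Ccl2-/- arrays below all wild type arrays, which held for 9.31% of all genes, and Ifi35 had them above, which held for 9.43%. The largest positive changes were those of Ifi35 (0.18), Lgals3bp (0.08) and Samd9l (0.07), and none of these passed.

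**Figure D3:**
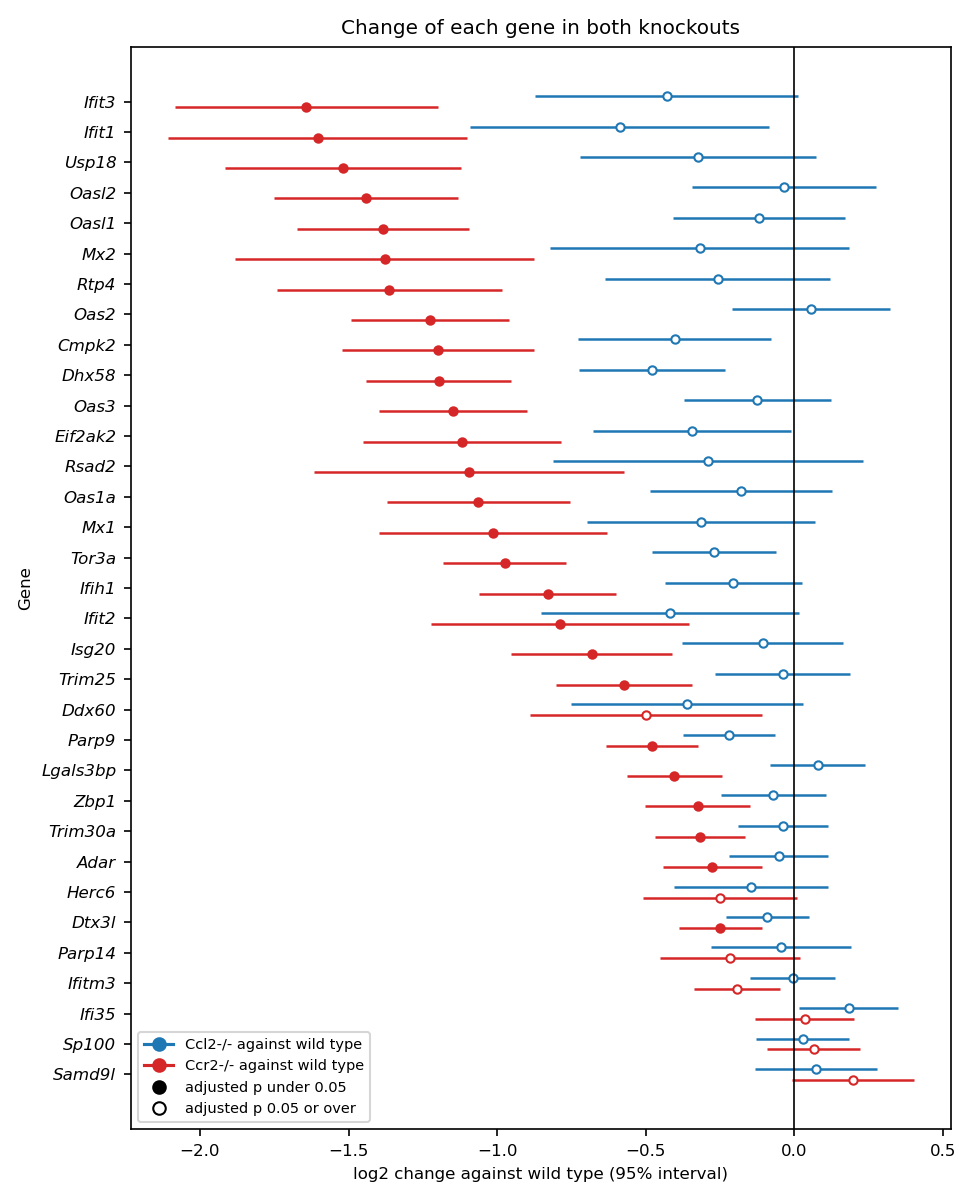
Points are log2 changes against wild type (horizontal axis) with 95% intervals for each of the 33 genes (vertical axis), red for Ccr2-/- and blue for Ccl2-/- monocytes, filled where the limma adjusted p was under 0.05. In Ccr2-/- monocytes 26 filled points lie left of 0, and in Ccl2-/- monocytes no point is filled and 28 means lie left of 0. Centring on the monocyte marker list moves Zbp1, Parp9, Dtx3l, Trim30a, Adar, Lgals3bp, Ifitm3, Herc6, Parp14 and Ddx60 to the right of 0 in Ccr2-/- monocytes.

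The Ccl2-/- arrays were not alike. Replicate 3 was the highest of its group for 29 of the 33 genes, while it was the highest for 18.1% of all genes. Without it, 4 genes were called lower in Ccl2-/- monocytes, against 1.08% of all genes, a share that was 0.0853% with all arrays. The log2 changes of the 4 were -0.84 for Ifit1 (limma adjusted p = 0.0469), -0.60 for Dhx58 (0.0167), -0.56 for Cmpk2 (0.0406) and -0.37 for Tor3a (0.037). The same array read 12.13 in the mean of 16 NK cell markers, against 12.39 and 12.34 in the other Ccl2-/- arrays, and 11.17 in the mean of 8 markers of Ly-6Chi monocytes, against 10.83 and 10.86. Wild type replicate 1 was the lowest of its group for 28 of the 33 genes and for 32.8% of all genes, and it had the highest Ly-6Chi mean, 12.003 against 11.42 in each of the others. Among Ccr2-/- arrays, replicate 3 was the lowest for 22 of the 33 genes and for 35.6% of all genes. The part of these markers in the differences between arrays was not tested.

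Markers of the cells collected also differed between the genotypes. In Ccr2-/- monocytes 8 of 11 general monocyte markers and 7 of 8 Ly-6Chi monocyte markers were called lower, and 16 of 16 NK cell markers were called higher. Summed intensities of the Ly-6Chi markers were 32978 to 41092 in wild type, 23583 to 27385 in Ccl2-/- and 15110 to 16363 in Ccr2-/- arrays. For the NK markers these sums were 72047 to 78484, 91017 to 109850 and 122800 to 127020, and no 2 genotypes overlapped in either sum. The general monocyte markers summed to 69444 to 71703, 64671 to 71406 and 54393 to 58528. In Ccr2-/- monocytes their median was 0.776-fold of wild type, beside 0.366-fold for the Ly-6Chi markers and 1.73-fold for the NK markers. The median of the interferon-stimulated genes was 0.563-fold. Of 10 markers of Ly-6Clo monocytes 2 were called higher and 0 lower, and of 8 markers of plasmacytoid dendritic cells, the main makers of type I interferon in blood, 2 were called lower. The plasmacytoid markers ran from 0.80-fold to 1.11-fold of wild type, with a median of 0.97-fold. Of 7 markers of conventional dendritic cells 3 were called lower and 0 higher. Their levels ran from 0.254-fold to 1.15-fold of wild type, with a median of 0.97-fold. Among the other lists, 1 of 6 B cell and 1 of 5 eosinophil markers were called higher, 1 of 10 neutrophil markers was called lower, and 0 of the T cell, basophil and mast cell, platelet and erythroid markers were called. With median centring 4 of the 11 general monocyte markers and 0 of the 8 plasmacytoid dendritic cell markers were called lower, and 1 of 10 Ly-6Clo markers higher. In Ccl2-/- monocytes 1 of 16 NK and 1 of 10 Ly-6Clo markers were called higher, 1 of 8 Ly-6Chi and 1 of 7 conventional dendritic cell markers lower, and 0 of the other lists. The part of these cells in the fall of the interferon-stimulated genes was not tested, and array intensities have no true zero by which a marker could be read as absent. Each array was also centred on the mean of its monocyte markers, a step chosen after seeing the data. The median of all genes in Ccr2-/- monocytes then moved from 0.01 to 0.52 and that of the 33 genes from -0.83 to -0.32. The difference of both medians, -0.84, is the same by construction. Of the 33 genes 17 were called lower and 5 higher, against 358 (1.8%) lower and 15162 higher of all 19938 genes.

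**Figure D4:**
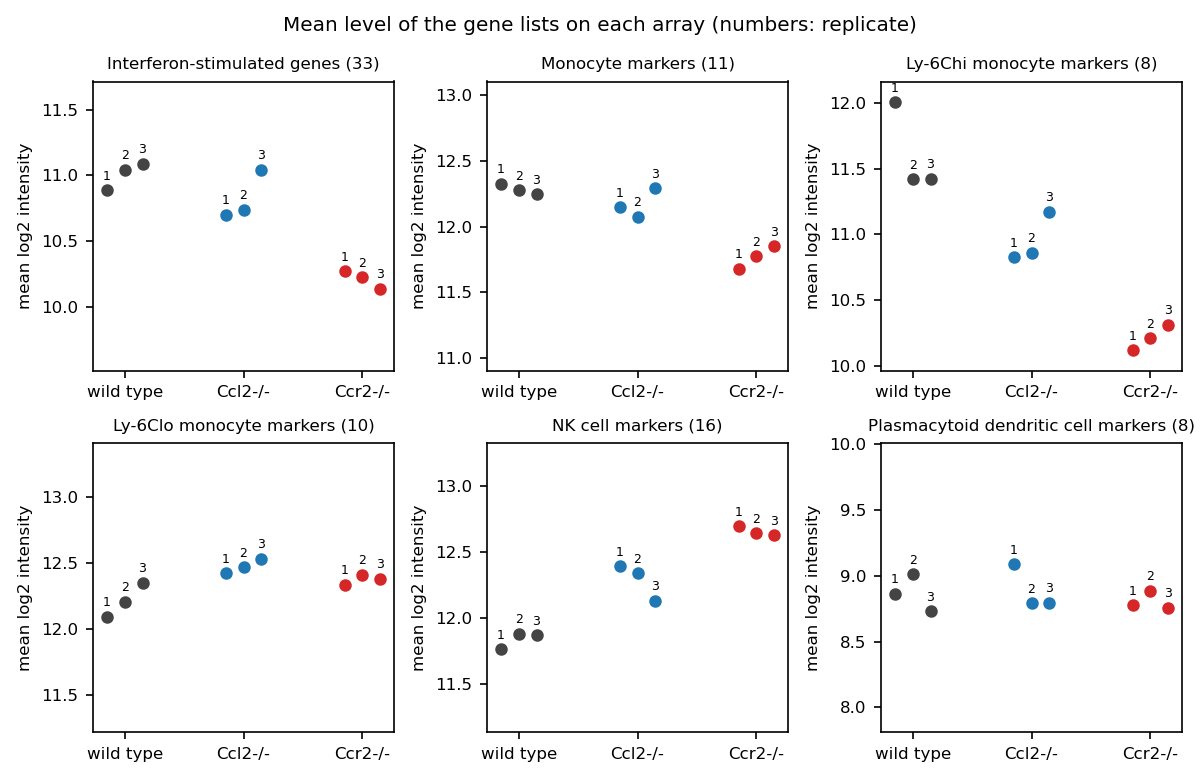
Each point is the mean log2 intensity over a gene list (number of genes in the panel title) on 1 array, numbered by replicate, for the 3 genotypes. Ccr2-/- arrays are lowest for interferon-stimulated genes, monocyte markers and Ly-6Chi markers and highest for NK cell markers, and Ccl2-/- replicate 3 lies nearer to wild type than Ccl2-/- replicates 1 and 2 in these 4 lists, while all genotypes overlap in plasmacytoid dendritic cell markers.

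The response element in the promoter window did not sort the genes cleanly. Of the measured genes with a window, 10 held a match, and 8 of these were called lower in Ccr2-/- monocytes, against 8.38% of all genes. The median level of the 10 was 0.473-fold of wild type. Another 13 held none, 9 of them were called lower, and their median level was 0.756-fold. Log2 changes ran from -1.64 to -0.19 in the first group and from -1.44 to 0.20 in the second. Ifit3 and Ifit1, whose elements are printed above, had the largest falls, and Ddx60 and Ifitm3, each with 2 matches, did not pass. Oasl2 and Oasl1 had no match in their windows and stood at 0.368-fold and 0.383-fold of wild type. These figures are a description, since genes with and without a window were not chosen at random.

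Several of the genes are neighbours in the genome and are not independent of each other in that sense. Oasl1 and Oasl2, Oas2 and Oas3, Rsad2 and Cmpk2, and Ifit2 and Ifit3 are adjacent pairs in which both genes were called lower in Ccr2-/- monocytes. Dtx3l lies between Parp9 and Parp14, and of these 3 genes Parp14 was not called. None of the 33 genes lies on chromosome 9, which carries Ccr2. Dhx58, Ifi35, Trim25 and Lgals3bp are on chromosome 11 with Ccl2, and the nearest of them in gene order, Trim25, is 105 protein-coding genes away.

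Genes that make, receive and transmit the interferon signal were examined by list. Among 16 measured interferon genes 1 was called higher in Ccr2-/- monocytes and 1 lower. Ifng, the type II interferon of NK and T cells, was at 1.797-fold (limma adjusted p = 0.00150) and read 9.39, 9.51 and 9.45 in wild type, 10.16, 10.24 and 9.96 in Ccl2-/- and 10.50, 10.15 and 10.24 in Ccr2-/- monocytes. Both knockouts lay above wild type on every array. The gene annotated as Ifnab was at 0.660-fold (limma adjusted p = 0.0461), and the other 14 did not pass. Of 6 receptor genes, 0 were called higher and 2 lower, Ifngr2 at 0.618-fold (limma adjusted p = 0.00121) and Ifnar2, a chain of the type I receptor, at 0.729-fold (0.00449). Ifnar1, the other chain, did not pass at 0.877-fold (0.0779).

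Downstream of the receptors, 5 genes of the JAK and STAT list were measured. Stat2 read 11.19, 11.27 and 11.33 on the wild type and 10.76, 10.68 and 10.61 on the Ccr2-/- arrays and was at 0.670-fold (limma adjusted p = 0.00193). Irf9, which joins STAT2 at the response element, read 11.996, 11.999 and 12.002 in wild type, 11.79, 11.77 and 11.85 in Ccl2-/- and 11.54, 11.52 and 11.57 in Ccr2-/- monocytes and was at 0.730-fold (limma adjusted p = 0.00132). For both genes the Ccr2-/- arrays were the lowest, and for Irf9 the Ccl2-/- arrays lay between the other genotypes without overlap. Jak1 was called higher at 1.29-fold (limma adjusted p = 0.00914). In the direct comparison Stat2 (0.747-fold (limma adjusted p = 0.0293)) and Irf9 (0.837-fold (limma adjusted p = 0.0480)) were also lower in Ccr2-/- than in Ccl2-/- monocytes. These 2 direct calls were lost with median centring and with centring on the monocyte marker list, and that of Irf9 also with quantile normalization (adjusted p = 0.0768). Against wild type, centring on the monocyte marker list ended the calls of Stat2 (-0.07), Ifngr2 (-0.18) and Ifnab (-0.09) and turned Irf9 (0.06) and Ifnar2 (0.06) to positive log2 changes without a call, and median centring ended those of Ifnar2 (adjusted p = 0.0647) and Jak1 (0.0544).

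Among 7 interferon regulatory factors, 3 were called lower in Ccr2-/- monocytes and 0 higher. Irf7, itself an interferon-stimulated gene and the factor that amplifies interferon production, read 12.42, 12.51 and 12.58 in wild type, 12.55, 12.42 and 12.71 in Ccl2-/- and 11.94, 11.90 and 11.92 in Ccr2-/- monocytes. Its Ccl2-/- arrays overlapped wild type and its Ccr2-/- arrays were lower, at 0.668-fold (limma adjusted p = 0.00258). Irf5 was at 0.665-fold (limma adjusted p = 0.00263) and Irf4 at 0.321-fold (0.00430). Of 13 genes that sense nucleic acids upstream of interferon, 4 were called lower and 0 higher, namely Tlr9 at 0.554-fold (limma adjusted p = 0.00120), Tlr3 at 0.590-fold (0.00549), Tlr7 at 0.703-fold (0.00933) and the adaptor Myd88 at 0.742-fold (0.00571). Of 6 negative regulators, Socs1 (1.74-fold (limma adjusted p = 0.00686)) and Ptpn2 (1.21-fold (0.0216)) were called higher and Socs3 (0.645-fold (0.0107)) lower. The inhibitors of cytokine signalling Socs1 and Socs3 thus stood on opposite sides of wild type. Centring on the monocyte marker list ended the calls of Irf7 (-0.07), Irf5 (-0.08), Tlr3 (-0.25) and Socs3 (-0.12) and turned Tlr7 (0.0044) and Myd88 (0.08) to positive log2 changes without a call. Median centring ended the calls of Tlr7 (adjusted p = 0.0761), Myd88 (0.0604) and Ptpn2 (0.187).

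A further list of 41 measured interferon-stimulated genes outside the 33 had 15 called lower and 0 higher in Ccr2-/- monocytes. The shares over all genes were 8.38% and 4.91%, and the median log2 change of the 41 was -0.18. Ifi44l was at 0.394-fold (limma adjusted p = 0.000386), Ifi27l2a at 0.417-fold (0.000818), Ifi205 at 0.447-fold (0.00115) and Parp12 at 0.459-fold (0.000579). Between the knockouts 8 of the 41 were called lower in Ccr2-/- monocytes, against 2.87% of all genes. In Ccl2-/- monocytes Xaf1 alone of the 41 passed, and it was higher. The GTPases induced mainly by interferon gamma went both ways in Ccr2-/- monocytes, with 3 of 8 called higher and 2 lower. Gbp4 was at 1.90-fold (limma adjusted p = 0.00216), Gbp8 at 1.71-fold (0.000884) and Gbp7 at 1.34-fold (0.00436), while Irgm1 was at 0.647-fold (0.00319) and Gbp3 at 0.738-fold (0.0136). No other gene of the ligand, receptor, JAK and STAT, regulatory factor, regulator, sensing and GTPase lists was called in Ccl2-/- monocytes. With median centring 8 of the 41 were called lower in Ccr2-/- monocytes, against 4.81% of all genes, and Xaf1 was no longer called in Ccl2-/- monocytes. Centring on the monocyte marker list gave 6 lower and 25 higher among the 41, against 358 lower and 15162 higher of all 19938 genes. It ended the call of Irgm1 (-0.11) and turned Gbp3 to a log2 change of 0.07 without a call.

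**Figure D5:**
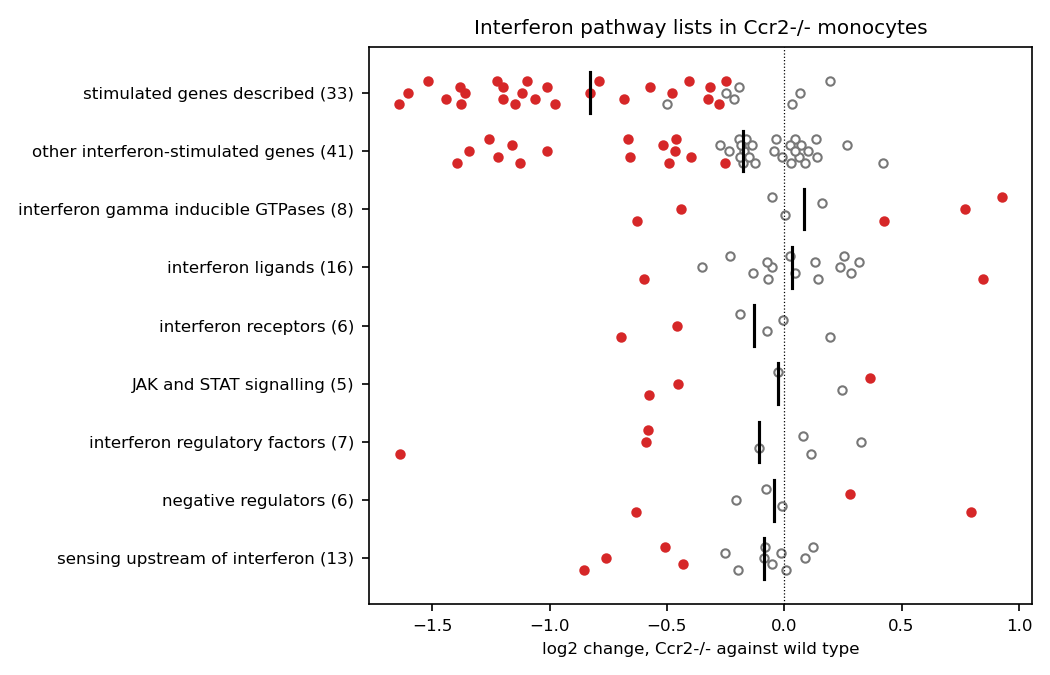
Each point is the log2 change of a gene in Ccr2-/- against wild type monocytes (horizontal axis), filled red where the limma adjusted p was under 0.05, in rows by list with the number of measured genes, and black bars mark medians. The 33 interferon-stimulated genes have a median of -0.83, the further 41 one of -0.18 and the 8 interferon gamma GTPases one of 0.08, with filled points on both sides of 0 in the GTPase row. Positions are those before the centring on monocyte markers, which moves every point to the right by the same amount.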

How the data were processed

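The authors deposited linear intensity values from dChip, 1 per transcript cluster and array. No source used here gives the version of dChip, its normalization or its expression model. Of 35512 clusters, 21789 carry 1 gene symbol, 1621 several and 12102 none listed. Symbols were updated by gene number through the RefSeq table. A gene with several clusters (999 genes) was represented by that with the highest mean log2 value, which left 19938 genes. Values below 1 were set to 1 (19 values) before log2. In R 4.3.3, limma 3.58.1 fitted the 3 genotypes over the 9 arrays, p-values were adjusted by Benjamini-Hochberg over all genes, and the fit was tested on simulated data. Promoter searches and figures used Python 3.11.15, pandas 2.3.3 and matplotlib 3.10.9. Arrays have no read depth, and their number limits the precision.

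Genes and lists were chosen with earlier results of these data known. By rule, array values were given for each member past the test in any comparison, for those with the highest and lowest wild type means and for the largest changes, and the few remaining members were added. At most 4 genes per pathway list were named, those with the smallest p, besides single genes behind small counts, named after their values were seen. Alternatives changed the scaling (quantile normalization, centring on the array median), the filter (only genes with a mean over 100), the variance model (an intensity trend), the offset (50 before log2), the clusters (their mean per gene), the samples (only the 6 arrays compared, or any array left out), the design (a block for the replicate number) and the threshold (unadjusted p, or the ratio over 1.2 and difference over 100 of the study's methods). Centring on the monocyte marker list was added after seeing the data. Replicate numbers did not pair the arrays.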

Additional observations from a re-analysis of the deposited data

How the results depend on the processing

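In Ccl2-/- against wild type, the count of genes called lower went from 0 to 1 with an intensity trend (Dhx58, with 0.858% of all genes called lower). It was 6 at an unadjusted p under 0.05 (6.32% of all genes) and 12 under the size limits of the methods (3.76%). Leaving out single arrays gave 0 to 4, the 4 beside 1.08% of all genes. The count called higher went from 0 to 1 at an unadjusted p (6.78% of all genes). In Ccr2-/- against Ccl2-/- the 18 genes called lower stood beside 2.87% of all genes. They became 5 with median centring (0.371% of all genes), 2 in a fit of the 6 arrays compared (0.0702%) and 10 with the replicate number as a block (0.737%). Leaving out single arrays gave 3 to 20 (0.1% to 4.14%). In Ccr2-/- against wild type the 26 genes called lower stood beside 8.38% of all genes. They became 20 to 27 with single arrays left out (5.57% to 10.4%) and 22 with the replicate block (6.84%). Same-numbered arrays deviated together with correlations of -0.18 to 0.56, and 3 of 9 arrays correlated best with their own number, so the numbers were not taken to pair the arrays. Centring on the monocyte marker list, chosen after seeing the data, gave 17 lower and 5 higher in Ccr2-/- against wild type (median -0.32). Between the knockouts it gave 11 lower and 2 higher (median -0.22). Of all 19938 genes, 358 were called lower and 15162 higher against wild type, and 106 lower and 6699 higher between the knockouts. This centring raised every gene by the same amount (0.512 in Ccr2-/- against wild type). Thus 10 of the 30 genes with a lower mean turned higher there and 11 of 31 between the knockouts. Against wild type these went to 0.32 for Ifitm3, 0.19 for Zbp1, 0.033 for Parp9, 0.26 for Dtx3l, 0.19 for Trim30a, 0.24 for Adar, 0.11 for Lgals3bp, 0.26 for Herc6, 0.296 for Parp14 and 0.014 for Ddx60, and the 5 called higher were Ifitm3, Dtx3l, Ifi35, Sp100 and Samd9l. Among all called genes, the share called higher between the knockouts was 20.3%, and it was 44% with quantile normalization, 71.6% with median centring and 98.4% with the monocyte list. Against wild type it was 36.9%, 48.9%, 41.8% and 97.7% in Ccr2-/- monocytes, and 46.9%, 53.2%, 38.5% and 57.1% in Ccl2-/- monocytes. Of genes without a call, the sign changed under some alternative for 13 of 33 in Ccl2-/- against wild type, 5 of 7 in Ccr2-/- against wild type and 12 of 15 between the knockouts. The causes were not tested.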

Other observations

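Members without a cluster of their own gave values that belong to no single gene. The cluster shared by Isg15 and Gm9706 averaged 7.83 ± 0.07 on the log2 scale over the wild type arrays (SD, n = 3 for each genotype), 7.77 ± 0.17 over the Ccl2-/- arrays and 7.56 ± 0.09 over the Ccr2-/- arrays, a difference of -0.27 between Ccr2-/- and wild type. A cluster shared by Oas1a and Oas1g read 11.32 ± 0.01, 11.31 ± 0.19 and 10.14 ± 0.06 in the same order, a difference of -1.18 between Ccr2-/- and wild type, beside -1.06 for the cluster listed for Oas1a alone. These clusters were not tested.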
